A study of Mus musculus with 9 samples.

Results

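The hippocampus is built of fields with different principal neurons, and genes enriched in single fields were read here as a measure of how much of each field the dissected tissue of each mouse contributed. The genes are *Prox1*, *Dsp*, *C1ql2*, *Tdo2* and *Lct* for the dentate gyrus, *Wfs1*, *Fibcd1* and *Pou3f1* for CA1, and *Bok* and *Amigo2* for CA3 and CA2. They were taken by gene name from the array annotation, which gave 10 of 31093 gene names and 11 of 39429 probes. Total RNA of the hippocampus was hybridized to one-colour Agilent mouse gene arrays, with 1 array per mouse, for 3 IF1-KO, 3 CRL and 3 IF1-TG mice.

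All mice were males of the C57BL/6J strain aged 9 months on regular chow. IF1, encoded by *Atpif1*, is the inhibitor protein of the mitochondrial ATP synthase. In IF1-KO mice an exon of the floxed gene is deleted where a *Camk2a*-driven Cre is active from early postnatal life. This is mostly in excitatory neurons of the forebrain, so the other cells of the tissue, among them other types of neuron, keep the gene. IF1-TG mice express human IF1 under a tetracycline-responsive promoter driven by a *Camk2a* transactivator, and CRL are the controls, whose exact alleles are not given for the array mice in the sources used here. The *Atpif1* probe read, as log2 intensity above or below each array's 75th percentile, 5.20 and 5.53 on IF1-KO replicates 2 and 3, 6.19 to 6.34 on the CRL arrays and 6.38 to 6.51 on the IF1-TG arrays. The array that carries the label IF1-KO replicate 1 read 6.43, not below the CRL arrays, which goes against its label if the probe reads the deleted exon. Whether it does was not checked here, and each direction drawn for IF1-KO below rests on a group that holds this array.

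Granule cells of the dentate gyrus receive the cortical input and send mossy fibres to CA3, whose pyramidal cells project to CA1, the main output of the hippocampus. CA2 is a small field between CA3 and CA1. These cell types keep distinct programs of transcription factors, adhesion molecules and synaptic proteins in the adult. A piece of tissue that holds more or less of one field therefore shifts many genes at once. In bulk tissue, fewer cells of a type and less RNA per cell cannot be told apart.

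Each member was read by a 60-base probe. Shown are the probe of *C1ql2*, which had one of the widest ranges over the arrays, and the probes of *Tdo2* and of a second *Dsp* site, for which the annotation gives no genomic position. They are written 5′ to 3′ as in the array annotation, with no base in capitals because no part of them is singled out.

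C1ql2: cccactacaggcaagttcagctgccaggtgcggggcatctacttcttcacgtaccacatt

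Tdo2: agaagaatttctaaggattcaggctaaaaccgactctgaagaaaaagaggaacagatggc

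Dsp, second probe: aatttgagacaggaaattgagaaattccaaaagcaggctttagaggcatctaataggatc

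On mm9 the *C1ql2* probe lies on the plus strand at chr1:122238262-122238321, in a gene of the C1q family. The second *Dsp* probe was well above background on 0 of 9 arrays, with processed intensities of 4.09 to 12.0, and was left out. The *Dsp* values below come from the other probe, printed on 10 spots of each array, at chr13:38290121-38290180. The other mapped probes lie, on mm9, at chr1:191945785-191945844 for *Prox1*, chr1:130181389-130181448 for *Lct*, chr5:37357424-37357483 for *Wfs1*, chr2:31669627-31669686 for *Fibcd1*, chr4:124337692-124337751 for *Pou3f1*, chr1:95592276-95592335 for *Bok* and chr15:97075262-97075321 for *Amigo2*. Their exons were not looked up, since no annotation of this build was used. The 10 remaining probes, 1 for each gene, were well above background on all 9 arrays, so the markers of each field were present in every sample. Values are log2 intensity relative to each array's 75th percentile, so that a difference of 1 is a doubling. They compare arrays for 1 probe and not probes with each other.

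The dentate gyrus markers differed widely among individual mice, and for 3 of them 1 IF1-KO array stood lowest. *Prox1*, the homeobox factor that gives granule cells their identity, read -2.31, -3.23 and -2.40 on IF1-KO replicates 1 to 3, -2.11, -2.29 and -2.11 on the CRL arrays and -2.64, -2.41 and -2.62 on the IF1-TG arrays. Every CRL array was above all 6 other arrays. *Dsp*, desmoplakin, which ties intermediate filaments to cell junctions, read -1.05, -2.17 and -0.89 in IF1-KO, -0.39, -0.93 and -0.72 in CRL and -1.02, -1.15 and -1.78 in IF1-TG. Its IF1-TG arrays were all below its CRL arrays, and IF1-KO replicate 2 was the lowest of all. *Lct*, lactase, used as a marker of mature granule cells, read 2.01, -0.0045 and 1.92 in IF1-KO, 2.43, 2.31 and 1.93 in CRL and 2.21, 1.64 and 1.37 in IF1-TG. On IF1-KO replicate 2 it was 2.59-fold below the next lowest array, while the other 8 arrays overlapped between genotypes.

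*C1ql2* and *Tdo2* had other orders. *C1ql2*, a secreted synaptic organizer of the mossy fibres, read -0.68, -1.61 and -1.00 in IF1-KO, -0.84, -0.98 and -0.85 in CRL and -2.89, -1.10 and -1.23 in IF1-TG. IF1-TG replicate 1 was 2.42-fold below the next lowest array, IF1-KO replicate 2. *Tdo2*, tryptophan dioxygenase, the enzyme that opens the kynurenine pathway, read -4.58, -4.76 and -4.33 in IF1-KO, -4.65, -4.50 and -4.00 in CRL and -3.47, -5.09 and -3.77 in IF1-TG. Its highest and lowest arrays were both IF1-TG. Its processed intensities were 51.0 to 168 units, and it was the only dentate gyrus member that was higher on IF1-TG replicate 1 than on any other array.

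Of the CA1 markers, *Fibcd1* varied most. *Wfs1*, wolframin of the endoplasmic reticulum, read 3.10, 3.22 and 3.22 in IF1-KO, 3.65, 3.62 and 3.29 in CRL and 2.92, 3.64 and 3.11 in IF1-TG. Its CRL arrays were all above its IF1-KO arrays, and the IF1-TG arrays spanned both. *Pou3f1*, a POU-domain transcription factor, read 2.96, 2.45 and 2.97 in IF1-KO, 3.20, 3.06 and 2.84 in CRL and 2.92, 3.10 and 3.21 in IF1-TG. The 3 genotypes overlapped, with IF1-KO replicate 2 lowest. *Fibcd1*, a cell-surface receptor with a fibrinogen-like domain, read -1.91, -1.51 and -1.42 in IF1-KO, -2.07, -2.05 and -1.94 in CRL and -2.32, -1.87 and -0.71 in IF1-TG. IF1-TG held both its lowest and its highest array.

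The CA3 and CA2 markers had log2 ranges of 0.67 for *Bok* and 0.81 for *Amigo2*, near the median of 0.78 over all probes. *Bok*, a relative of the pro-apoptotic protein BAX, read 2.54, 2.29 and 2.86 in IF1-KO, 2.70, 2.42 and 2.59 in CRL and 2.19, 2.72 and 2.51 in IF1-TG, with all genotypes overlapping. *Amigo2*, an adhesion protein with leucine-rich repeats, read -2.61, -3.01 and -2.64 in IF1-KO, -2.20, -2.70 and -2.77 in CRL and -2.60, -2.54 and -2.49 in IF1-TG. Its IF1-TG arrays lay above its IF1-KO arrays by a margin smaller than the spread within IF1-KO.

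**Figure D1:**
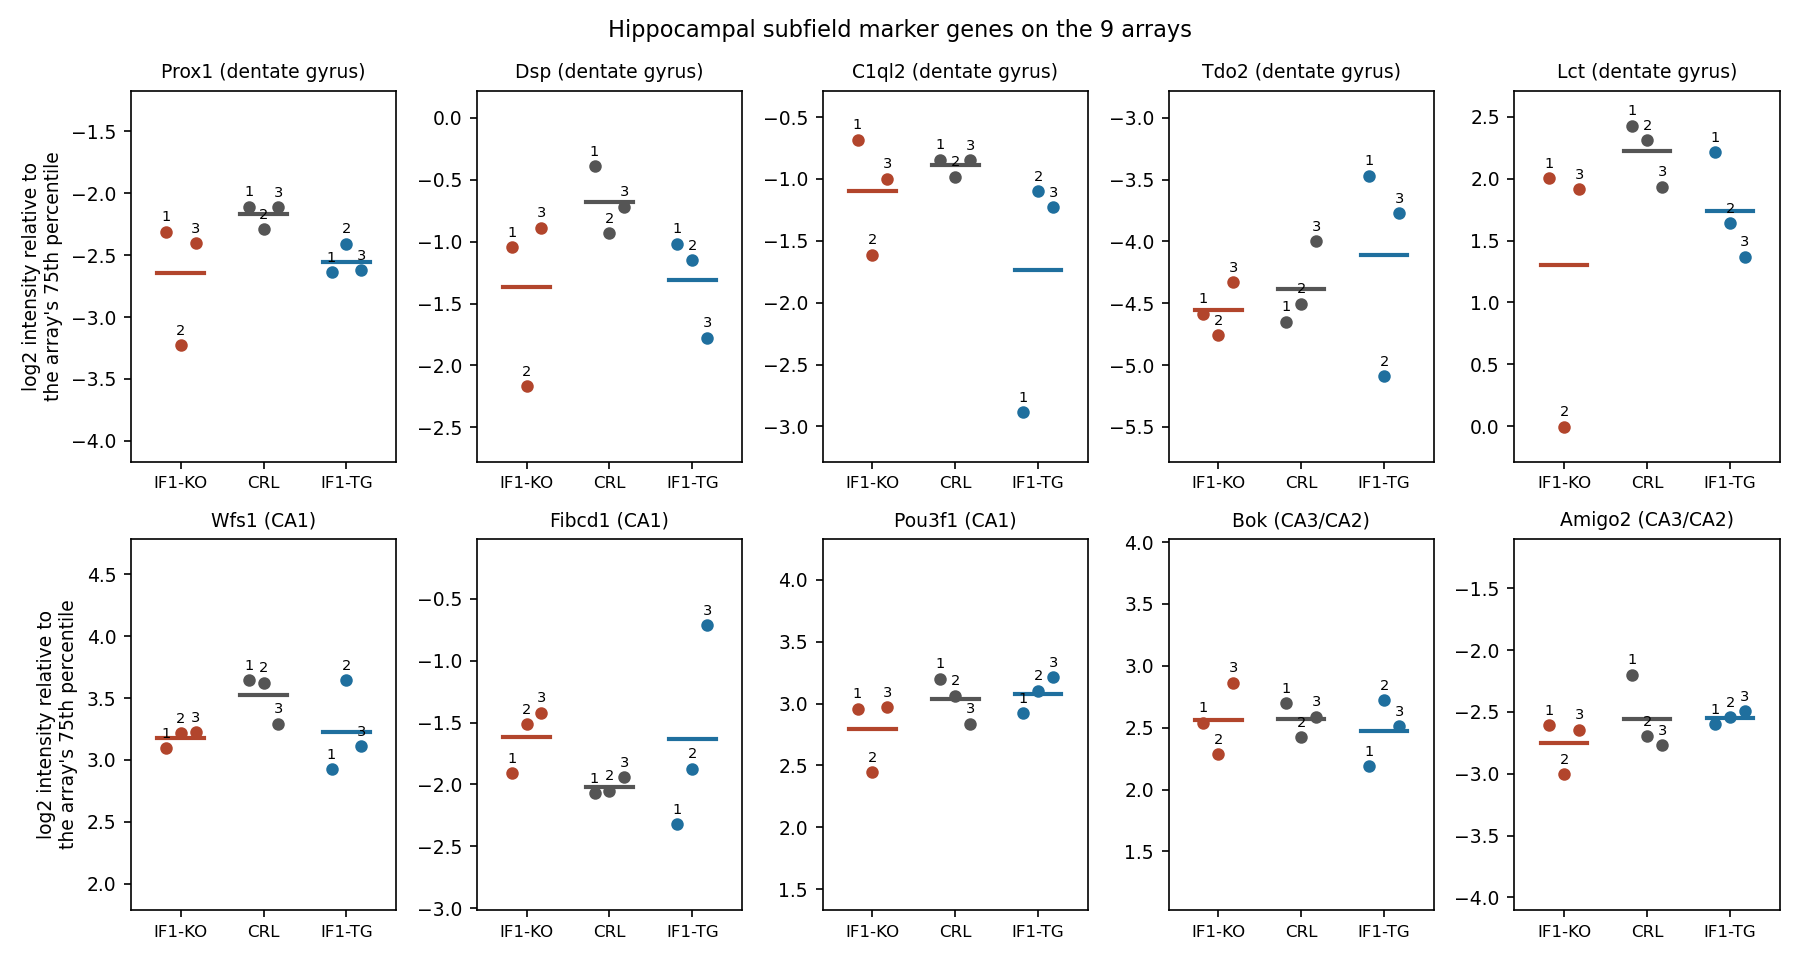
The vertical axes give log2 intensity relative to each array's 75th percentile and span the same number of log2 units in every panel, so panels differ in offset only. Each point is 1 mouse, marked with its replicate number, and each line is the mean of 3 arrays. IF1-KO replicate 2 is lowest for *Prox1*, *Dsp*, *Lct*, *Pou3f1* and *Amigo2*, and IF1-TG replicate 1 for *C1ql2*, *Wfs1*, *Fibcd1* and *Bok*.

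The 4 widest ranges over the 9 arrays were those of dentate gyrus genes. The highest array exceeded the lowest 5.40-fold for *Lct*, 4.60-fold for *C1ql2*, 3.42-fold for *Dsp*, 3.08-fold for *Tdo2*, 3.05-fold for *Fibcd1* and 2.17-fold for *Prox1*. It did so by 1.60- to 1.75-fold for *Bok*, *Wfs1*, *Pou3f1* and *Amigo2*. On the log2 scale the range of *Lct*, 2.43, was at the 97.3rd percentile of all 27991 probes kept, and that of *Bok*, 0.67, at the 41.1st, against a median of 0.78 over all probes. For *Dsp* the spread among spots of the same array could be read from the 9 or 10 spots used. It leaves out the spread of labelling and hybridization, which is part of the spread between mice. The SD of its spots within an array was 0.026 to 0.29, against 0.49 for the SD between mice of a genotype, and on IF1-KO replicate 2 the highest spot, at -2.09, was below the lowest spot of each other array, the nearest being -2.00 on IF1-TG replicate 3.

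IF1-KO replicate 2 was the lowest array for 5 of 10 members and below the mean of the 9 arrays for 9 of 10. IF1-TG replicate 1 was lowest for 4 of 10. CRL replicate 1 was highest for 5 of 10. *Dsp* and *Lct* rose and fell together over the 9 arrays (r = 0.90, exact permutation P = 0.000987, adjusted P = 0.0222 over the 45 pairs of members; rho = 0.75, exact permutation P = 0.0255, adjusted P = 0.229). So did *Prox1* and *Dsp* (r = 0.90, exact permutation P = 0.000874, adjusted P = 0.0222; rho = 0.83, exact permutation P = 0.00827, adjusted P = 0.121). No other pair passed an adjusted P of 0.05 by r, and no pair did so by rho. The next was a pair from different fields, *Pou3f1* and *Amigo2* (r = 0.87, exact permutation P = 0.00345, adjusted P = 0.0518; rho = 0.82, exact permutation P = 0.0108, adjusted P = 0.121). The median r was 0.25 over the 10 pairs of dentate gyrus members and 0.52 over the 10 pairs of a dentate gyrus with a CA3 or CA2 member. Without the 2 arrays farthest from the median of the first gene, r was 0.60 for *Dsp* with *Lct*, 0.69 for *Prox1* with *Dsp* and 0.81 for *Pou3f1* with *Amigo2*. Without IF1-KO replicate 2 alone r was 0.82, 0.78 and 0.76. With each value centred on the mean of its genotype, r was 0.90, 0.84 and 0.83. The permutations moved arrays freely across genotypes, so their P also covers differences between genotypes.

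No member was called different between any pair of genotypes. A call required a fold change of 1.5 or more together with an unadjusted limma P under 0.05, the thresholds that the study's methods state. In IF1-TG against IF1-KO mice 0 of 10 members passed, where 1.73% of all probes kept were called higher and 2.05% lower. In IF1-TG against CRL mice 0 of 10 passed, against 2.24% higher and 2.22% lower, and in IF1-KO against CRL mice 0 of 10, against 0.636% higher and 0.429% lower. At these shares fewer than 1 of 10 probes is called in each comparison. No member had an unadjusted limma P under 0.05 in any comparison, and the smallest was that of *Prox1* in IF1-KO against CRL mice. The adjusted P of every member was 1.00 in IF1-KO against CRL mice.

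Against CRL, the dentate gyrus members had lower means in both models, except *Tdo2* in IF1-TG mice, and all intervals included 0. The list's median log2 difference was -0.48 in IF1-TG and -0.48 in IF1-KO mice, against a median over all probes of 0.00067 and -0.0075. Both comparisons use the same CRL arrays. Whether these shifts are particular to the dentate gyrus was not tested. The 6 striatum genes were also all lower, with a median of -0.42 in IF1-KO and -0.35 in IF1-TG mice, and of -0.19 and -0.10 without CRL replicate 3. The median of oligodendrocyte genes was -0.29 in IF1-KO and -0.06 in IF1-TG mice, that of CA2 genes -0.27 and -0.09, and that of choroid plexus genes -0.47 and 0.37. In IF1-KO mice these 3 medians went to -0.08, -0.08 and 0.39 without IF1-KO replicate 2, and in IF1-TG mice that of the choroid plexus genes to -1.14 without IF1-TG replicate 1. Without CRL replicate 2 the choroid plexus median was 0.89 in IF1-KO and 1.75 in IF1-TG mice. Without IF1-KO replicate 3 it was -1.83 in IF1-KO mice. In IF1-TG mice the median was also -0.26 for GABAergic interneuron genes (5 of 6 lower), -0.23 for ventral hippocampus genes (3 of 4 lower) and 0.30 for thalamus genes (3 of 5 higher). The first 2 went to -0.11 and 0.19 without IF1-TG replicate 1, and the last to 0.19 without IF1-TG replicate 2. Without CRL replicate 1 the ventral median was -0.03 in IF1-TG mice. In IF1-KO mice the ventral median was 0.23, with 4 of 4 genes higher, and ran from 0.17 to 0.41 as single arrays were left out. The GABAergic interneuron and thalamus medians in IF1-KO mice were -0.07 and 0.05. All 5 members were below CRL in IF1-KO mice and all but *Tdo2* in IF1-TG mice. Without IF1-KO replicate 2, 4 of 5 were below CRL in IF1-KO mice and the median was -0.19, with *C1ql2* at 0.05. Without IF1-TG replicate 1, *Tdo2* was at -0.05 in IF1-TG mice. *Prox1* had a log2 difference of -0.39 in IF1-TG (SE 0.23, 95% confidence interval -0.91 to 0.14, limma adjusted P = 0.675) and of -0.48 in IF1-KO mice (SE 0.23, -1.00 to 0.048). *Dsp* differed by -0.63 in IF1-TG (SE 0.35, -1.43 to 0.17, limma adjusted P = 0.659) and by -0.69 in IF1-KO mice (SE 0.35, -1.48 to 0.11). The intervals reached past 1.5-fold in the downward direction, so a change of that size could not be told from none with 3 arrays per genotype.

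*C1ql2* differed by -0.85 in IF1-TG against CRL mice (SE 0.45, -1.87 to 0.17, limma adjusted P = 0.645), and 1 array carried most of this. Without IF1-TG replicate 1 the difference was -0.27. *Lct* differed by -0.92 in IF1-KO against CRL mice (SE 0.50, -2.06 to 0.22), and without IF1-KO replicate 2 by -0.26. Without that array *Dsp* and *Prox1* also moved closer to CRL, to -0.29 and -0.19. Leaving out instead the array labelled IF1-KO replicate 1, the one with unreduced *Atpif1*, took the differences to -1.27 for *Lct* (SE 0.52) and -0.65 for *Prox1* (SE 0.24), which then passed the thresholds (limma adjusted P = 0.980 for both).

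In IF1-TG minus IF1-KO, 4 of 5 dentate gyrus members had positive log2 differences, with a median of 0.09 against 0.0070 over all probes. *Prox1* was at 0.09 and *Dsp* at 0.05, *C1ql2* at -0.64 (SE 0.45, limma adjusted P = 0.756), *Lct* at 0.44 (SE 0.50, adjusted P = 0.843) and *Tdo2* at 0.44 (SE 0.39, adjusted P = 0.795). Without IF1-KO replicate 2, 1 of 5 was positive and the median was -0.22, with *Prox1* at -0.20, *Dsp* at -0.35, *C1ql2* at -0.90, *Lct* at -0.22 and *Tdo2* at 0.34. Without IF1-TG replicate 1, *C1ql2* was at -0.07 and *Tdo2* at 0.12, and without IF1-TG replicate 2 *Tdo2* was at 0.93. Medians of some other lists lay further from 0 in this comparison, at 0.87 for choroid plexus, 0.60 for thalamus and -0.47 for ventral hippocampus genes. The first and last went to -0.79 and -0.05 without IF1-TG replicate 1, and that of thalamus genes to 0.14 without IF1-TG replicate 2.

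Of the 5 CA1, CA3 and CA2 members, 4 had means below CRL in IF1-KO and 2 in IF1-TG mice. *Wfs1* was at -0.34 in IF1-KO (SE 0.19) and at -0.30 in IF1-TG mice (SE 0.19, limma adjusted P = 0.699), the latter -0.14 without IF1-TG replicate 1 and -0.50 without replicate 2. *Fibcd1* was at 0.41 in IF1-KO (SE 0.36) and at 0.38 in IF1-TG mice (SE 0.36, limma adjusted P = 0.793). The IF1-TG value rested on replicate 3, without which it was -0.08. In IF1-KO mice *Pou3f1* was at -0.24, *Amigo2* at -0.20 and *Bok* at -0.0069. In IF1-TG mice *Pou3f1* was at 0.05, *Amigo2* at 0.01 and *Bok* at -0.10, and each of these turned sign when single arrays were left out. Arrays of the 2 genotypes did not overlap for 1 of 10 members in IF1-TG against IF1-KO mice (*Amigo2*), where 13.6% of all probes did not. The count was 3 of 10 in IF1-TG against CRL mice (*Prox1*, *Dsp* and *C1ql2*; 12.2% of all probes) and 3 of 10 in IF1-KO against CRL mice (*Prox1*, *Wfs1* and *Fibcd1*; 8% of all probes).

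**Figure D2:**
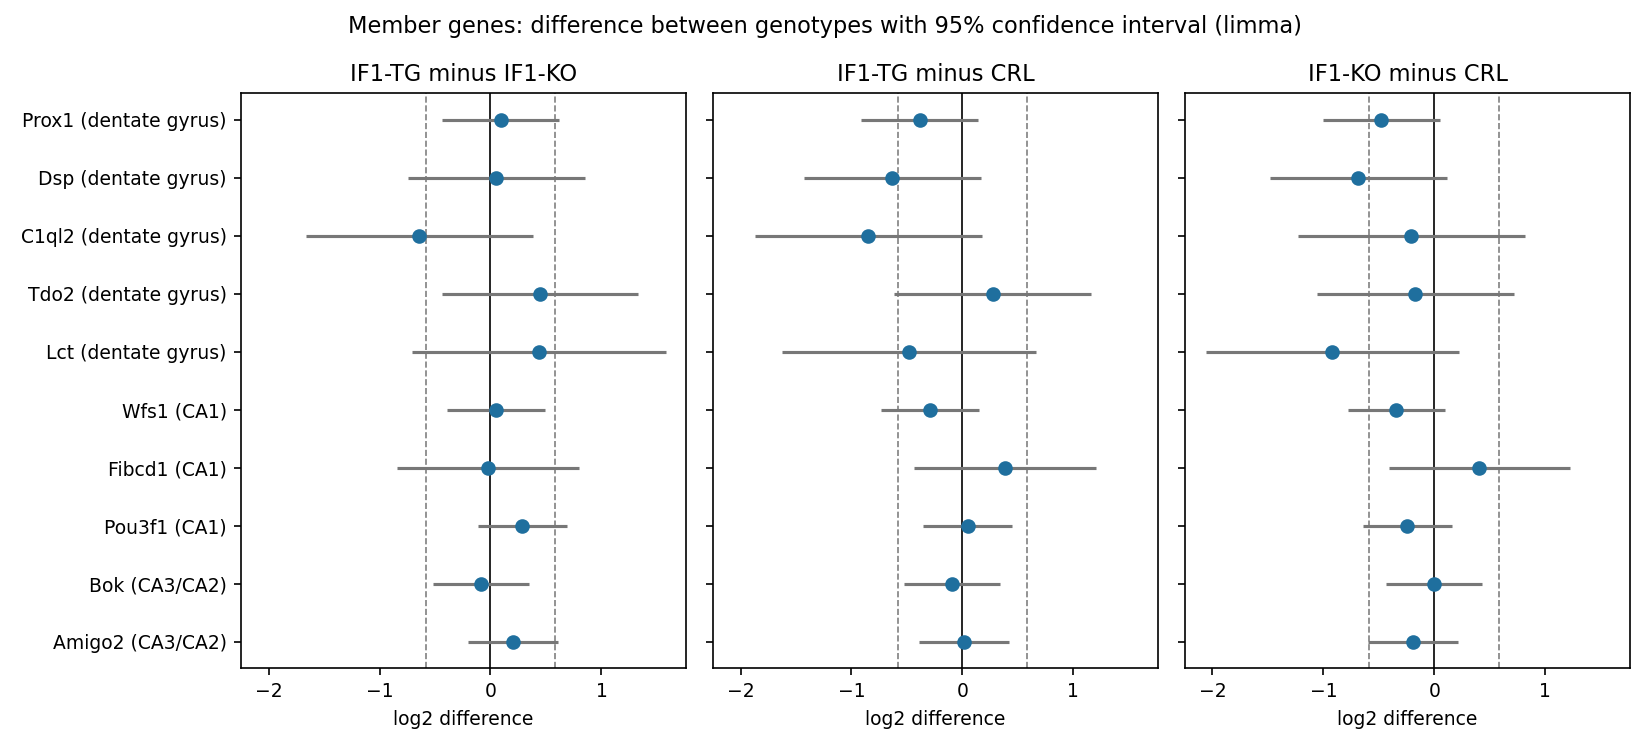
Points are log2 differences between genotypes from limma over the 9 arrays, bars are 95% confidence intervals, and dashed lines mark a 1.5-fold change. All 30 intervals include 0, and those of the dentate gyrus genes and *Fibcd1* are the widest.

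To judge the dissection, each gene was centred on its mean over the 9 arrays and the members of a field were averaged for each array. This level was 0.16, -0.87 and 0.14 for the dentate gyrus in IF1-KO replicates 1 to 3, 0.37, 0.20 and 0.33 in CRL and -0.08, -0.14 and -0.12 in IF1-TG mice. CRL (0.30 ± 0.088, SD, n = 3) was above every other array, IF1-TG (-0.11 ± 0.032) had the smallest SD, and IF1-KO (-0.19 ± 0.59) consisted of 2 arrays just below CRL and 1 far below. The IF1-TG levels average members that deviated in opposite directions, such as *C1ql2* at -1.64 and *Tdo2* at 0.88 on replicate 1. Scaling the arrays by quantiles, or with normexp background correction and quantiles, left the lowest CRL array (0.19 and 0.20) above the highest array of the other genotypes (0.15 and 0.18). The CA1 level was -0.12, -0.12 and 0.08 in IF1-KO, 0.09, 0.04 and -0.11 in CRL and -0.33, 0.12 and 0.36 in IF1-TG mice, so the genotypes overlapped. The CA3 and CA2 level ranged from -0.32 to 0.15 in IF1-KO, from -0.10 to 0.29 in CRL and from -0.17 to 0.13 in IF1-TG mice.

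**Figure D3:**
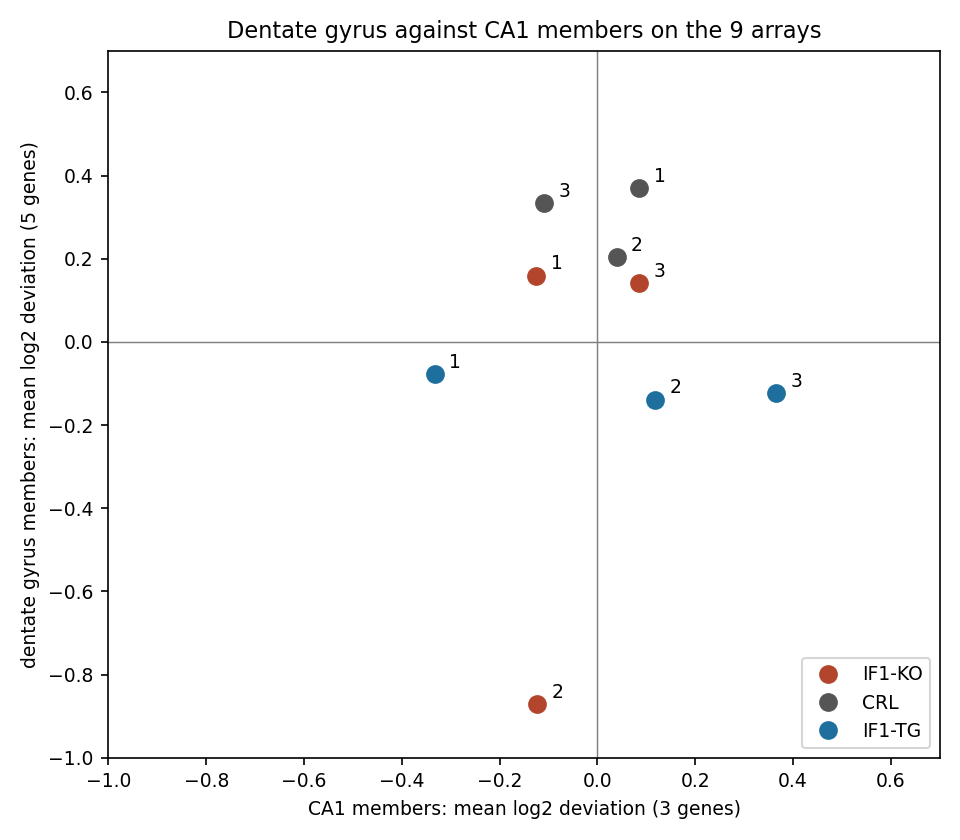
Each point is 1 mouse, with its replicate number. The horizontal axis is the mean log2 deviation of the 3 CA1 members and the vertical axis that of the 5 dentate gyrus members, each from the mean of the 9 arrays. CRL arrays lie highest on the dentate gyrus axis, IF1-KO replicate 2 lies lowest, at -0.87, and the IF1-TG arrays spread along the CA1 axis from -0.33 to 0.36.

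The dentate gyrus level minus the CA1 level was 0.28, -0.75 and 0.06 in IF1-KO, 0.28, 0.16 and 0.44 in CRL and 0.26, -0.26 and -0.49 in IF1-TG mice. The mean balance was 0.30 ± 0.14 in CRL, -0.14 ± 0.54 in IF1-KO and -0.16 ± 0.38 in IF1-TG (SD, n = 3 each), so it was 0.46 lower in IF1-TG and 0.43 lower in IF1-KO than in CRL mice. The first difference was larger and the second smaller than the SD within that model. The arrays overlapped in both comparisons. Without IF1-KO replicate 2 the difference between IF1-KO and CRL was -0.13, and without IF1-TG replicate 3, whose high *Fibcd1* raised the CA1 level, that between IF1-TG and CRL was -0.30. Without IF1-TG replicate 1 the latter was -0.67.

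The arrays lay on 3 slides that only partly crossed with genotype. Slide 1 carried only IF1-TG replicates 1 and 2. On slide 2 were IF1-TG replicate 3, the first 2 CRL replicates and the array labelled IF1-KO replicate 1, and on slide 3 CRL replicate 3 and the other 2 IF1-KO arrays. Within slide 2, IF1-TG minus CRL was -0.42 for *Prox1*, -1.11 for *Dsp*, -0.31 for *C1ql2*, 0.80 for *Tdo2*, -1.00 for *Lct* and 1.35 for *Fibcd1*. IF1-KO minus CRL on slide 2 was -0.11 for *Prox1*, -0.38 for *Dsp*, 0.23 for *C1ql2*, -0.0069 for *Tdo2* and -0.36 for *Lct*. On slide 3, which holds IF1-KO replicate 2, it was -0.70 for *Prox1*, -0.81 for *Dsp*, -0.46 for *C1ql2*, -0.54 for *Tdo2* and -0.98 for *Lct*. These values rest on 1 or 2 arrays a genotype and carry no test. With slide as a block in the limma model, *Fibcd1* was 1.40 higher in IF1-TG than in CRL mice (SE 0.22, limma adjusted P = 0.193), since IF1-TG then rests on replicate 3, its only array on a shared slide.

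Other marker genes of the fields, from a list of the same kind, were read in the same way. Of 11 further dentate gyrus genes 10 were measured, and *Glis3* had no probe kept. In IF1-TG against CRL mice 0 were higher and 2 lower, against 2.24% and 2.22% of all probes. The median log2 difference over the 10 was -0.42, and ran from -0.66 without IF1-TG replicate 2 to -0.29 without CRL replicate 3 or IF1-TG replicate 1. *Npnt*, nephronectin of the extracellular matrix, fell by 0.60 (SE 0.19, limma adjusted P = 0.494), and was no longer called without CRL replicate 2 (-0.50) or IF1-TG replicate 1 (-0.47). *Trpc6*, a calcium-permeable cation channel, fell by 0.80 (SE 0.30, limma adjusted P = 0.547), and was no longer called without CRL replicate 1 (-0.67) or IF1-TG replicate 1, which carried much of the difference (-0.45 without it). In IF1-KO against CRL mice 0 of 10 were called, with a median of -0.25 and of -0.14 without IF1-KO replicate 2. In IF1-TG against IF1-KO mice it was 0 of 10, with a median of -0.19 that ran from -0.43 to -0.05 as single arrays were left out. The level of this second list was 0.10, -0.27 and 0.10 in IF1-KO, 0.18, 0.19 and 0.22 in CRL and -0.38, 0.03 and -0.16 in IF1-TG mice, so that CRL was again above the 6 other arrays. Gene by gene the 3 CRL arrays were above all others for 1 of 5 dentate gyrus members and for 2 of 9 further dentate gyrus genes with a value on all arrays, and for 0 of the 5 CA1, CA3 and CA2 members, where 1.08% of all probes had this order.

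IF1-KO replicate 2 was low for both dentate gyrus lists, while IF1-TG replicate 1 was lowest for the second list, at -0.38, and at -0.08 for the members. Of its 10 genes, 4 had their lowest value on IF1-KO replicate 2 and 5 on IF1-TG replicate 1. Genes named here were chosen after their values were seen. *Plk5* read -0.11 on IF1-KO replicate 2 and 0.44 to 1.60 on the other arrays. *Calb1*, the calcium buffer calbindin, read -5.39 on IF1-TG replicate 1 and -4.07 to -3.15 elsewhere. IF1-KO replicate 2 was thus lowest for *Prox1*, *Dsp*, *Lct* and *Plk5*, and IF1-TG replicate 1 for *C1ql2*, *Calb1* and *Trpc6*.

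Among the other fields, 0 of 8 further CA1 genes, 0 of 5 CA3 genes, 0 of 7 CA2 genes, 0 of 4 subiculum genes and 0 of 4 genes of the ventral hippocampus were called in any comparison. The further CA1 genes had medians of -0.04 in IF1-TG and -0.09 in IF1-KO against CRL mice. The first was 0.12 without IF1-TG replicate 1, where the list's level was -0.40, and -0.24 without IF1-TG replicate 3. The second was -0.0030 without IF1-KO replicate 2 and -0.16 without CRL replicate 3. IF1-KO replicate 2 was lowest for 5 of 7 CA2 genes, and IF1-TG replicate 1 was lowest for 3 of 4 ventral genes, with a mean level of -0.97 for that list and of -0.58 for the subiculum. The dentate gyrus minus CA1 balance of the further lists was 0.28 lower in IF1-TG and 0.18 lower in IF1-KO than in CRL mice. Without IF1-TG replicate 3 the first difference was -0.18.

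Markers of neighbouring tissue and of other cell types also differed among the arrays. All 5 choroid plexus genes had a probe kept. Their mean level ran from -2.16 to 2.20 in IF1-KO, from -1.59 to 2.39 in CRL and from -1.44 to 3.49 in IF1-TG mice. Its lowest value was on IF1-KO replicate 2 and its highest on IF1-TG replicate 1. *Ttr*, transthyretin, the main secreted protein of the choroid plexus, spanned 0.26 to 7.27. The mean level of the 5 neocortex genes was highest on IF1-KO replicate 2, at 0.65, against -0.45 to 0.45 on the other arrays, with 3 of 5 genes highest there. That of the 7 oligodendrocyte genes was lowest on it, at -0.42, with 5 of 7 genes lowest there. The mean level of the striatum genes was highest on CRL replicate 3, at 0.99, with 5 of 6 genes highest there. *Adora2a*, a striatal adenosine receptor, was the only 1 of 82 genes of the other lists called in IF1-KO against CRL mice. Of all probes, 0.636% were called higher and 0.429% lower in that comparison, so this count is near the share of all probes. *Adora2a* was at -1.16 there (SE 0.41, limma adjusted P = 1.00), and was lower in IF1-TG against CRL mice too, at -0.96 (SE 0.41, limma adjusted P = 0.581). CRL replicate 3 carried much of both. Without it the difference was -0.62 in IF1-KO, still called, and -0.42 in IF1-TG mice, not called. The first was also not called without IF1-KO replicate 2 (-1.16) or 3 (-1.08), and the second was called in 3 of 9 fits that left out 1 array. *Lef1*, a transcription factor of the thalamus, was higher in IF1-TG than in CRL mice by 0.68 (SE 0.27, limma adjusted P = 0.562), and was called in 5 of 9 such fits, not without IF1-TG replicate 1 (0.48) or 2 (0.67) or CRL replicate 1 (0.55) or 3 (0.53). None of the 5 choroid plexus, 5 neocortex, 7 oligodendrocyte, 5 astrocyte, 5 microglia and 6 GABAergic interneuron genes was called in any comparison. In all, 4 of 82 genes of the 14 other lists were called in IF1-TG against CRL mice, 1 higher and 3 lower, near the 2.24% and 2.22% of all probes. In IF1-TG against IF1-KO mice it was 0 of 82, against 1.73% of all probes higher and 2.05% lower. The part of neighbouring tissue, or of the cut of the dissection, in the levels of the members was not tested.

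**Figure D4:**
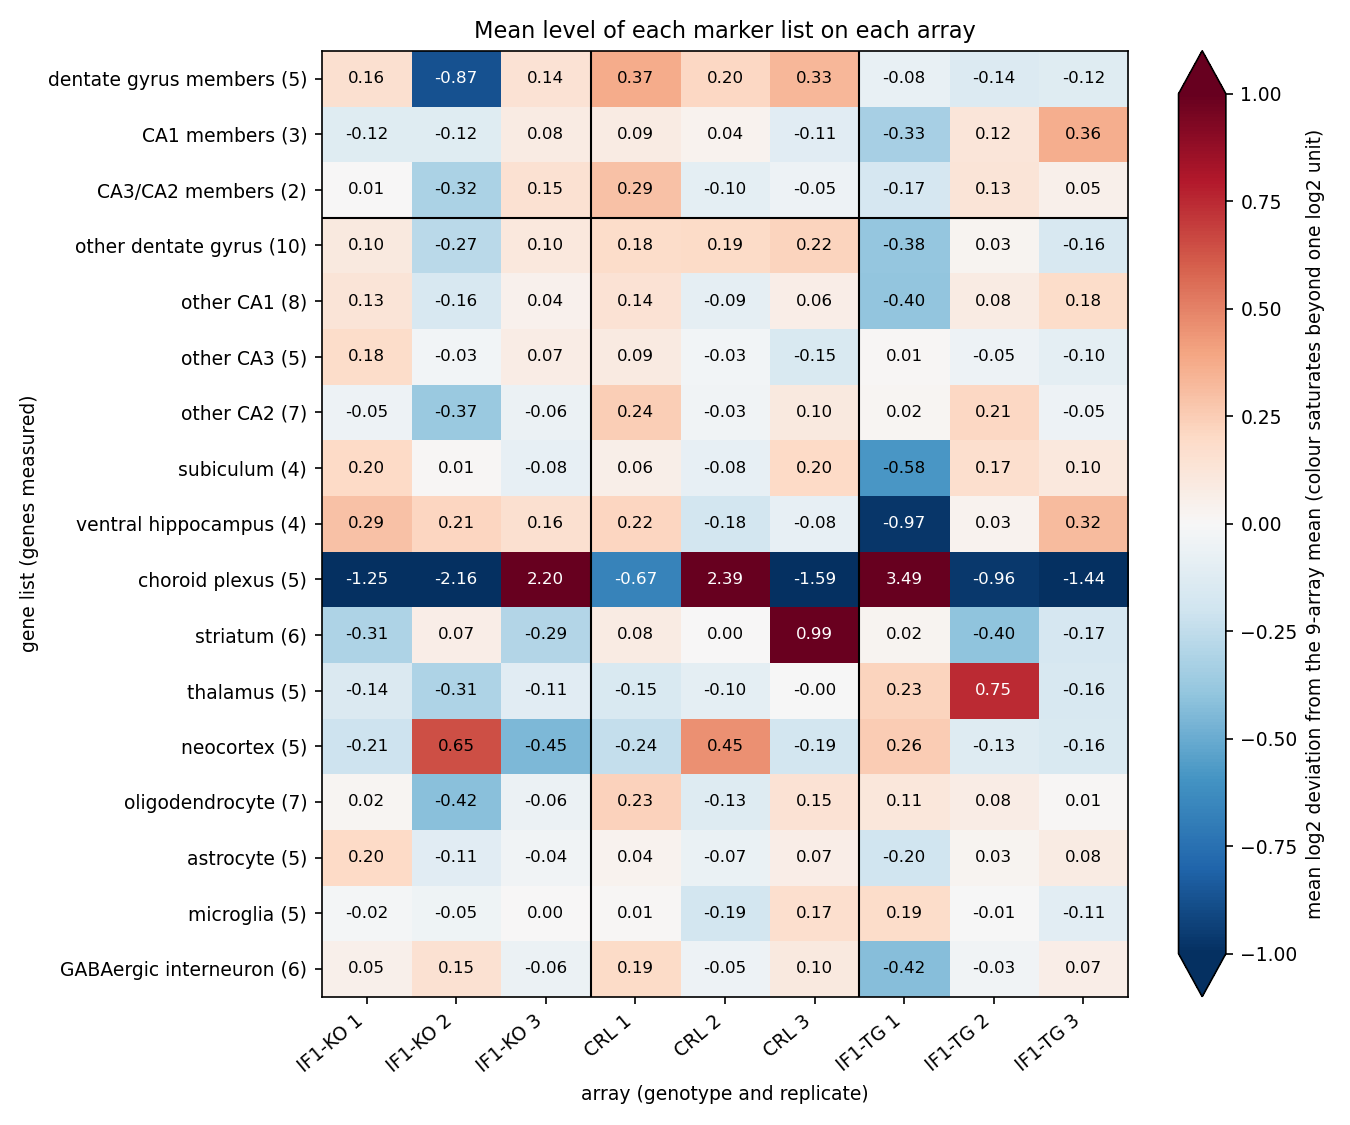
Rows are marker lists with the number of genes measured, columns are the 9 arrays, and each cell gives the mean log2 deviation of the list from its mean over the 9 arrays. The mean of the dentate gyrus members is lowest on IF1-KO replicate 2, at -0.87, where that of the neocortex genes is highest, at 0.65. The means of ventral hippocampus and subiculum genes are lowest on IF1-TG replicate 1, at -0.97 and -0.58, where that of the choroid plexus genes is highest, at 3.49.

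The profile of the dentate gyrus members over the 9 arrays was most like that of *Cacng6* (r = 0.98), *Heatr5a* (r = 0.95) and *Bmpr1a* (r = 0.94) among 16103 named genes, and that of the CA1 members was most like *Fbln2* (r = 0.94), *Grem1* (r = 0.93) and *Syt2* (r = 0.93). These are the extremes of many genes over 9 arrays and are given as a description only.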

How the data were processed

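Genotype and replicate number were taken from the sample labels, and the slide from those of the arrays. The authors deposited processed spot intensity from Agilent Feature Extraction 10.7.3.1, in which background had been subtracted and which carries no normalization between arrays. The deposited mean and local background intensity served for an alternative. The methods of the study name limma and the thresholds, and no normalization. Spots marked as outliers were left out, spots of a probe were averaged, and log2 processed intensity was set against each array's 75th percentile. A probe was kept if 1 or more genotypes had it well above background on all 3 of their arrays (27991 of 39429). No spot was saturated, 66.7% to 74.9% of probes per array were well above background, with IF1-TG lowest, and replicates correlated between 0.983 and 0.992. With 3 mice a genotype, the number of arrays sets the precision.

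All 9 arrays entered limma 3.58.1 (R 4.3.3), with Benjamini-Hochberg adjusted P over all probes kept. The steps were tested on simulated data. The brightest kept probe stood for a gene. Named are all 10 members, list genes past the thresholds, *Atpif1* and the 3 genes most like each profile. *Plk5*, *Calb1*, *Ttr* and *Glis3* were named outside this rule, after their values were seen. Members and lists were chosen with earlier results of these data known. The lists cover dentate gyrus, CA1, CA3, CA2, subiculum, ventral hippocampus, choroid plexus, striatum, thalamus, neocortex, oligodendrocyte, astrocyte, microglia and GABAergic interneuron genes. The alternatives were other scaling and filters, slide as a block, a replicate block, 2-genotype fits, trended robust eBayes, the mean of kept probes and leaving out arrays. Leaving out IF1-KO replicate 2 with IF1-TG replicate 1, and each array in turn for the called list genes, list medians and the balance of the further lists, was added after seeing the data.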

Additional observations from a re-analysis of the deposited data

How the results depend on the processing

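Of 600 differences of single members over all alternatives, 270 could not move, since the alternative left the values of both genotypes as they were. Of the other 330, 45 changed sign, and 12 of the 600 passed the thresholds, with adjusted P of 0.193 to 1.00. The count of members called, 0 in each comparison, was 1 in IF1-TG against IF1-KO mice (*Fibcd1*, 1.09 against -0.02) and 1 in IF1-TG against CRL mice (*Fibcd1*) with slide as a fixed block, and 1 in the latter when only the 2 genotypes entered the fit (*Dsp*). Leaving out 1 array gave 0 to 1 in IF1-TG against IF1-KO (1 without IF1-TG replicate 2, *Tdo2*), 0 to 2 in IF1-TG against CRL (1 without IF1-KO replicate 2, *Dsp*; 2 without IF1-TG replicate 2, *Tdo2* and *C1ql2*) and 0 to 2 in IF1-KO against CRL (2 without the array labelled IF1-KO replicate 1, *Lct* and *Prox1*; 1 without IF1-KO replicate 3, *Dsp*). Over the same omissions the dentate gyrus minus CA1 balance ranged from -0.33 to 0.18 for IF1-TG minus IF1-KO, from -0.67 to -0.30 for IF1-TG minus CRL and from -0.64 to -0.13 for IF1-KO minus CRL. Without both IF1-KO replicate 2 and IF1-TG replicate 1, chosen after seeing the data, 2 members were called in IF1-TG against CRL (*Dsp* at -0.78, *Lct* at -0.72), and the balance of IF1-TG against IF1-KO went from -0.03 to -0.54. With slide as a fixed block the balance went from -0.46 to -0.85 in IF1-TG against CRL and from -0.03 to -0.49 in IF1-TG against IF1-KO. With the replicate block, 0 members were called in each comparison and the balances were unchanged, at -0.46 in IF1-TG against CRL. Same-numbered arrays did not deviate together (correlations -0.17 to 0.12), so the numbers do not pair the mice. The mean of kept probes equals the brightest probe here, since each member had 1 kept. The share of all probes called in each alternative fit is not given here. The counts of members called in those fits therefore cannot be read as particular to the members. The causes of the changes between fits were not tested.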
